A study of Sus scrofa with 3 samples.

Results

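The 8 microRNAs (miRNAs) described here, ssc-miR-7, ssc-miR-9, ssc-miR-124a, ssc-miR-132, ssc-miR-137, ssc-miR-138, ssc-miR-153 and ssc-miR-216, are best known from brain, pituitary and pancreas and were measured here in pig liver. They were chosen by name, with earlier results of these data known. All 8 of 8 were found among the 405 mature miRNAs listed, of which 317 had a count in some library. They stood on 13 of the 486 rows of the deposited tables. The prefix ssc stands for the pig, Sus scrofa, and is mostly left out below. Livers of male pigs aged 90 days were sequenced for small RNA, with 1 library from the Enshi black pig, a domestic breed of China, 1 from the Chinese wild boar and 1 from the Large White, a commercial breed of European origin. No treatment or genotype is given. The labels speak of 3 pigs and 3 liver samples, so each breed stands on 1 library and every difference below is between libraries, with no replicate check and no p-value.

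A miRNA is cut from a hairpin precursor and guides a repressor complex to messenger RNAs that pair with its seed, the stretch of bases near its 5′ end. Several of these 8 are textbook markers of neurons. In mouse and human, miR-124 and miR-9 help set the neuronal state, miR-9 in mutual repression with the factor REST, and miR-132 is induced by neuronal activity through the transcription factor CREB. miR-7 is abundant in pancreatic islets, where it restrains insulin secretion in mice, and miR-216 marks the enzyme-secreting acinar cells of the pancreas. Liver is not known as a main site of expression of any of them.

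The libraries held 7730934 reads (Enshi black), 7824836 reads (wild boar) and 7343033 reads (Large White) after names that repeat another were removed. The hepatocyte miRNA miR-122 took 34.2%, 39.5% and 41.4% of them in the same order, which marks the tissue as liver, and the 4 hepatocyte markers together took 41.0%, 47.4% and 50.8%. Levels are counts per 1000000 reads (CPM), scaled by the trimmed mean of M-values (TMM), a method that takes most miRNAs to be equal between libraries. On that scale 1 read is worth 0.108 CPM in Enshi black, 0.119 CPM in wild boar and 0.176 CPM in Large White liver. TMM shifted all log2 ratios of Enshi black over Large White by −0.64 against plain library totals, those of wild boar over Large White by −0.48 and those of Enshi black over wild boar by −0.16. Ratios are therefore also given on library totals where that matters. Intervals are exact 95% intervals and cover counting error only, not the spread between animals.

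All 8 together were a trace of the liver profile. They summed to 3455 reads in the Enshi black, 2442 in the wild boar and 3857 in the Large White library. That is 0.0447% of the Enshi black reads (Clopper-Pearson interval 0.0432 to 0.0462), 0.0312% of the wild boar reads (0.0300 to 0.0325) and 0.0525% of the Large White reads (0.0509 to 0.0542). miR-7 alone gave 77.4%, 56.9% and 85.4% of these sums. Without miR-7 the order changed, and the other 7 summed to 84.1 CPM in Enshi black, 125 CPM in wild boar and 99.6 CPM in Large White liver. On library totals the sums of the 7 were 101, 134 and 76.9 CPM, so the wild boar library was highest on both scales and the order of the other libraries depended on the scaling.

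**Figure D1:**
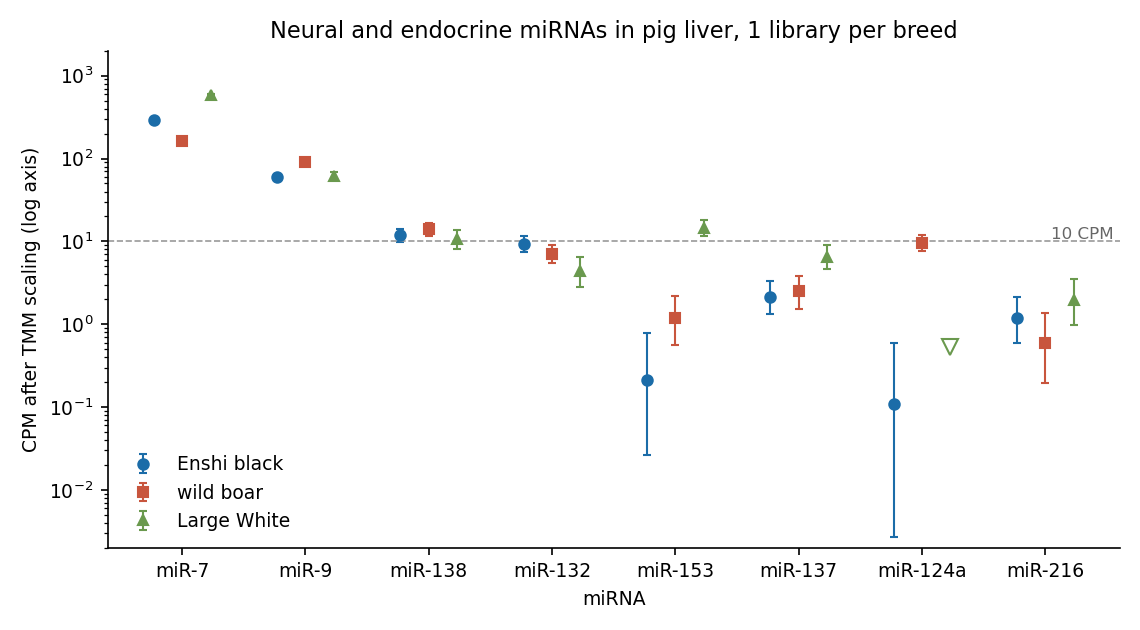
Level of each of the 8 miRNAs in CPM after TMM scaling (log axis) in the Enshi black, wild boar and Large White libraries, ordered by mean level. Bars are exact 95% counting intervals and the open triangle marks the limit that 0 reads of miR-124a allow in the Large White library (0.529 CPM). miR-7 and miR-9 lie above all others in each library, while miR-153 stands high in the Large White and miR-124a in the wild boar library.

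The order of levels was steep. miR-7 ranked 98th of the 405 miRNAs in the Enshi black, 111th in the wild boar and 79th in the Large White library, and miR-9 ranked 150th, 132nd and 152nd. miR-138 came next at about the 200th place (203rd, 197th and 202nd). A count was present for 311, 307 and 304 of the 405 miRNAs in the same order of libraries. The other 5, miR-132, miR-153, miR-124a, miR-137 and miR-216, had a mean under 10 CPM of the library total. They are given as counts and ratios but were not called. In the Enshi black library the intervals of miR-138 and miR-132 overlapped (9.73 to 14.3 and 7.50 to 11.6 CPM), and so did those of miR-137 and miR-216 (1.32 to 3.33 and 0.591 to 2.12 CPM). miR-138, miR-124a and miR-132 likewise lay side by side in the wild boar library, at 14.1, 9.61 and 7.12 CPM, where the intervals of miR-138 (11.7 to 16.9) and miR-132 (5.43 to 9.16) did not overlap but each overlapped that of miR-124a (7.63 to 11.9). In the Large White library miR-153 stood next after miR-9, at 14.6 CPM (11.7 to 18.1), with an interval that overlapped that of miR-138 at 10.6 CPM (8.07 to 13.6).

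ssc-miR-7 was the most abundant of the 8 and the one of the 3 callable members that passed the rule of a 2-fold difference with an interval that leaves out 1. It had 2674 reads or 288 CPM in the Enshi black library (277 to 299), 1390 reads or 165 CPM in the wild boar library (156 to 174) and 3292 reads or 580 CPM in the Large White library (561 to 601). The intervals of the 3 libraries do not overlap, and the Large White level is the highest. The ratio of wild boar over Large White was 0.284 (0.267 to 0.303), or −1.82 as a log2 ratio, and it stayed past 2-fold at −1.34 when library totals were used. In that pair 9 of the 208 miRNAs above the minimum had a lower ratio than miR-7. Enshi black over Large White gave 0.496 (0.471 to 0.522), just past 2-fold, and the log2 ratio of −1.01 became −0.94 with DESeq2 size factors and −0.37 on library totals, both under 2-fold. Relative to the median miRNA of the pair, which no scaling changes, miR-7 was lower by a log2 ratio of −0.97 in Enshi black and −1.80 in wild boar over Large White. Enshi black over wild boar was 1.75 (1.64 to 1.86), under 2-fold, with 18 of 208 miRNAs at a higher ratio. The pairs that share the Large White library are not independent of each other.

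miR-7 is made from a pair of hairpins here. In the RefSeq gene table of Sscrofa11.1, a later build than the one used for these files, MIR7-2 lies within HNRNPK, a widely expressed RNA-binding protein gene, and MIR7-1 lies between AEN and DET1. The mir-7-2 precursor was credited with 1374 reads in the Enshi black, 702 in the wild boar and 1694 in the Large White library, and mir-7-1 with 1300, 688 and 1598. The mir-7-2 precursor thus held 51.4%, 50.5% and 51.5% of the miR-7 reads, an excess of 74, 14 and 96 reads over mir-7-1. The equal part may be no more than the division of shared reads in the authors' counting, so these shares do not show how much each hairpin gave.

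The miRNAs whose levels over the 3 libraries ran most like miR-7 were miR-545-3p, miR-545-5p and miR-29b, by the distance between log2 profiles centred on their mean. The distances were 0.063, 0.13 and 0.14, against a median of 1.33 over the miRNAs above the minimum. miR-545-3p, the closest, had 33.7 CPM in Enshi black, 19.1 CPM in wild boar and 71.2 CPM in Large White liver. With only 3 libraries such a match is a description. Some markers of other cells had the same order of libraries. The leucocyte miR-142-3p stood at 8054, 2346 and 16873 CPM in the Enshi black, wild boar and Large White libraries, and the muscle miR-1 at 56.6, 21.9 and 103 CPM. The other muscle marker, miR-133a-3p, ran otherwise, at 19.7, 20.8 and 28.6 CPM after TMM scaling and 23.7, 22.4 and 22.1 CPM on library totals. The other blood marker, miR-451, differed less, at 3318, 2556 and 3641 CPM. On library totals it stood at 3987, 2754 and 2813 CPM, with the Enshi black library highest. The sum of the blood markers miR-142-3p and miR-451 was 11372, 4902 and 20514 CPM, most of it miR-142-3p in the Enshi black and Large White libraries. That of both muscle markers was 76.3, 42.7 and 132 CPM, most of it miR-1 in the Enshi black and Large White libraries. The hepatocyte markers had another order, at 341597, 439704 and 657125 CPM. The part of blood or muscle RNA in the miR-7 difference was not tested, and in whole liver fewer cells of a type and less RNA per cell cannot be told apart.

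**Figure D2:**
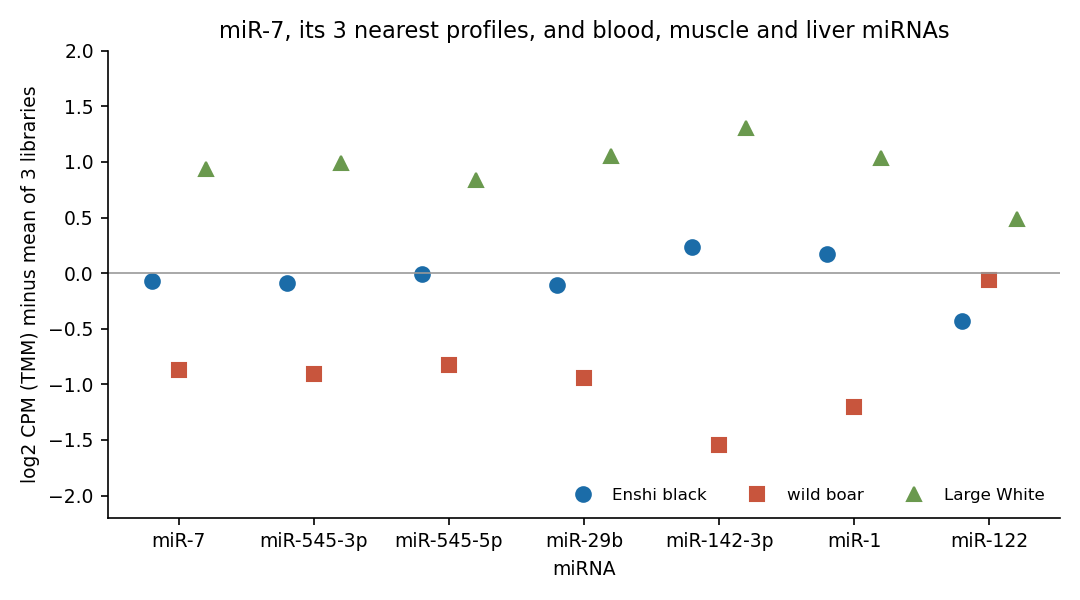
log2 CPM after TMM scaling, centred on the mean of the 3 libraries, for miR-7, the 3 miRNAs of most similar profile (miR-545-3p, miR-545-5p and miR-29b), the blood miRNA miR-142-3p, the muscle miRNA miR-1 and the hepatocyte miRNA miR-122. Each point is 1 library. All show the Large White library highest, and the wild boar library is lowest for each except miR-122, whose lowest level is in the Enshi black library. Not shown are the blood marker miR-451 and the muscle marker miR-133a-3p, whose lowest TMM-scaled level is likewise in the Enshi black library.

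ssc-miR-9, which in mouse and human acts in neural progenitors, was the second most abundant. It had 550 reads or 59.2 CPM in the Enshi black (54.4 to 64.4), 756 reads or 89.7 CPM in the wild boar (83.4 to 96.3) and 349 reads or 61.5 CPM in the Large White library (55.2 to 68.3). The wild boar level is the highest, and the TMM-scaled intervals of the other libraries overlap. Wild boar over Large White was 1.46 (1.28 to 1.66), or 0.54 as a log2 ratio, and the value of 1.02 on library totals was just past 2-fold. Enshi black over wild boar was 0.660 (0.590 to 0.738), a log2 ratio of −0.60, with 23 of 208 miRNAs at a lower ratio. Enshi black over Large White had a log2 ratio of −0.06 (−0.25 to 0.14) after TMM, 0.02 with DESeq2 size factors and 0.58 on library totals, so its direction depended on the scaling. The nearest profiles were those of miR-107, let-7e and let-7d-3p, at distances of 0.096, 0.11 and 0.12 against a median of 0.659. The reads were divided evenly over 3 precursors in each library, with 252 on each in the wild boar library, for example, so the files do not say which of MIR9-1, MIR9-2 and MIR9-3 they came from. MIR9-1 lies within the uncharacterized gene LOC106510131 and MIR9-2 next to MEF2C in the RefSeq table.

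ssc-miR-138, which limits the size of dendritic spines in rat neurons, was the steadiest of the 8. It had 110 reads or 11.8 CPM in the Enshi black, 119 reads or 14.1 CPM in the wild boar and 60 reads or 10.6 CPM in the Large White library. All 3 TMM-scaled counting intervals overlap. The log2 ratios were 0.16 (−0.30 to 0.64) for Enshi black over Large White, 0.42 (−0.04 to 0.89) for wild boar over Large White and −0.25 (−0.64 to 0.13) for Enshi black over wild boar. On library totals Enshi black over Large White was 0.80 (0.33 to 1.28) and wild boar over Large White 0.90 (0.44 to 1.37), both under 2-fold. Its nearest profiles were miR-296-5p, miR-195 and miR-676-3p, at distances of 0.058, 0.067 and 0.075 against a median of 0.517.

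Of these 3 callable members, 0 were higher and 1 was lower (miR-7) in Enshi black over Large White, where 2.88% of 208 miRNAs were called higher and 10.1% lower. The count was again 0 higher and 1 lower (miR-7) in wild boar over Large White, where 11.5% were called higher and 13.5% lower. In Enshi black over wild boar 0 of 3 were higher and 0 lower, against 6.25% of all in each direction. With 3 members, such counts cannot be told from the background. The median log2 ratios of the 3 were −0.06, 0.42 and −0.25 in these pairs, beside −0.04, −0.02 and −0.01 over all 208 miRNAs. On library totals the medians of the 3 were 0.58, 0.90 and −0.10, beside 0.60, 0.46 and 0.15 over all 208.

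**Figure D3:**
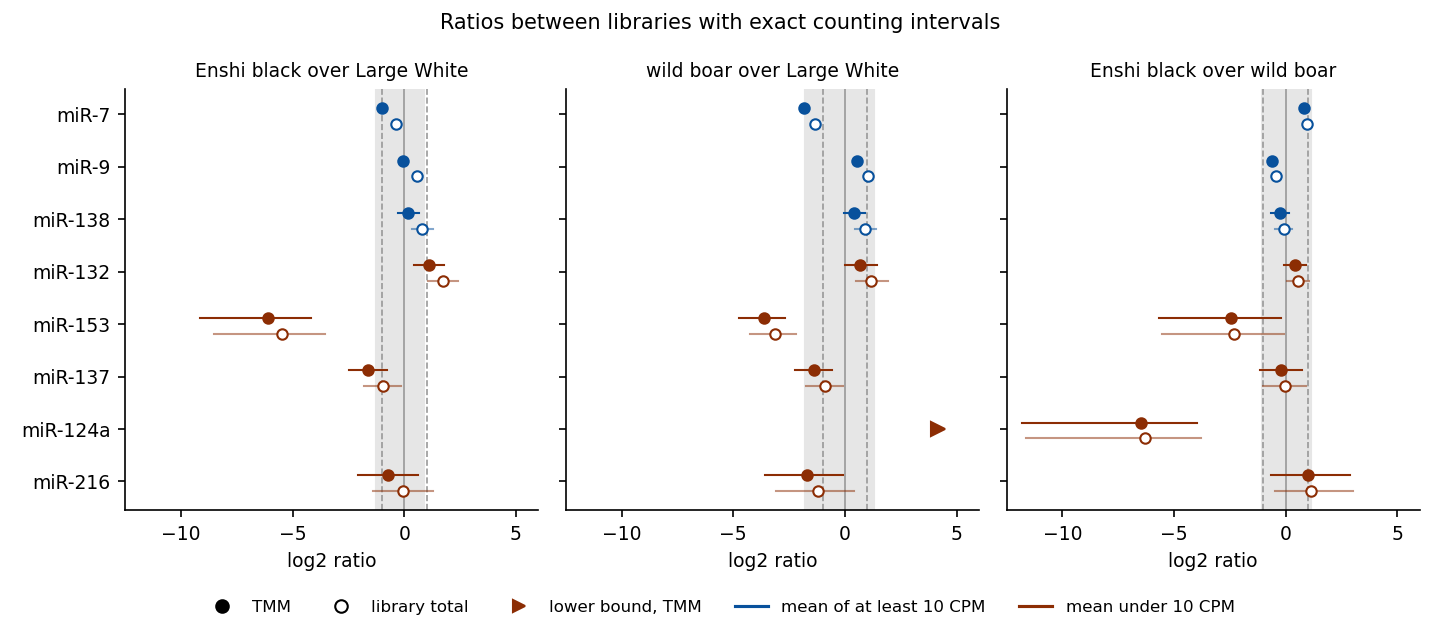
log2 ratios between libraries for the 8 miRNAs, with exact 95% counting intervals, in the pairs Enshi black over Large White, wild boar over Large White and Enshi black over wild boar. Filled points are TMM ratios and open points ratios of library totals, dashed lines mark 2-fold, the grey band holds the middle of the 208 callable miRNAs (5th to 95th percentile, TMM), and the arrowhead is a lower bound. The points of miR-124a and miR-153 lie outside the band, though the miR-153 interval reaches into it in Enshi black over wild boar. miR-124a has no point in Enshi black over Large White, and both are scarcer than the callable miRNAs of the band. The points of miR-138 and miR-9 lie within it.

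ssc-miR-124a, the most neuron-specific of the set in mouse and human, was found almost only in the wild boar library. It had 1 read in the Enshi black, 81 reads in the wild boar and 0 reads in the Large White library. Its level was 0.108 CPM (0.00273 to 0.6) in Enshi black and 9.61 CPM (7.63 to 11.9) in wild boar liver. The 0 reads in the Large White library are given a limit of 3 counts, or 0.529 CPM, while their exact interval reaches 0.65 CPM. Set against the limit of 3 counts, the wild boar level was 18.2-fold that of the Large White library. The exact interval of the ratio, which takes in the counting error of both libraries, starts lower, at 14.4-fold. Enshi black over wild boar was 0.0112 (0.00028 to 0.0642) on 1 against 81 reads. Neither direction changed on library totals, where Enshi black over wild boar had a log2 ratio of −6.32 (−11.64 to −3.80). Between Enshi black and Large White, at 1 and 0 reads, no difference was detectable at this depth. The reads were divided evenly between 2 precursors, 40.5 on each in the wild boar library.

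ssc-miR-153, a brain miRNA that in mouse and human represses synaptic vesicle proteins and alpha-synuclein, was found mainly in the Large White library. It had 2 reads in the Enshi black, 10 reads in the wild boar and 83 reads in the Large White library, or 0.215, 1.19 and 14.6 CPM. The Large White interval of 11.7 to 18.1 CPM overlaps neither that of the Enshi black (0.0261 to 0.778) nor that of the wild boar library (0.569 to 2.18). Enshi black over Large White was 0.0147 (0.00175 to 0.0548), and wild boar over Large White 0.0811 (0.0375 to 0.157). On library totals the log2 ratios were −5.45 and −3.14. Enshi black over wild boar was 0.182 (0.0193 to 0.852), which rests on 2 against 10 reads.

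Among the 262 miRNAs with at least 20 reads in some library, miR-153 and miR-124a had the widest ranges. Both reached that minimum only through the library where they were high, and such a filter favours wide ranges among scarce miRNAs. With counts under 3 set to 3, the highest over the lowest library came to 45.3-fold for miR-153 and 29.8-fold for miR-124a, against a median of 1.69-fold over the 262. For miR-124a the lowest library was then Enshi black, its 1 read raised to 3, and against Large White the fold was 18.2. miR-184, miR-323 and miR-758 were the other 3 miRNAs past 10-fold. A set of 27 scarce miRNAs had at least 50 reads in some library but a mean under 10 CPM. The median of the 27 was 2.72-fold, and miR-153 and miR-124a were the 2 past 10-fold. That these 2 stood alone depends on the cutoff of 50 reads, which each of them reached in 1 library only. miR-323, past 10-fold and also with a mean under 10 CPM, missed the set with at most 48 reads. miR-153 and miR-124a were each high in a different library. In the wild boar library, where miR-124a was high, miR-153 had 10 reads. In the Large White library, where miR-153 was high, miR-124a had 0. Over the neuron markers miR-124a, miR-9, miR-137, miR-138, miR-153 and miR-128, 6 of 6 had a read in the Enshi black and wild boar libraries and 5 of 6 in the Large White library. Their summed level was 406 CPM in Enshi black, 495 CPM in wild boar and 364 CPM in Large White liver, most of it miR-128 (332, 378 and 271 CPM). Each of these ranges rests on 1 library.

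**Figure D4:**
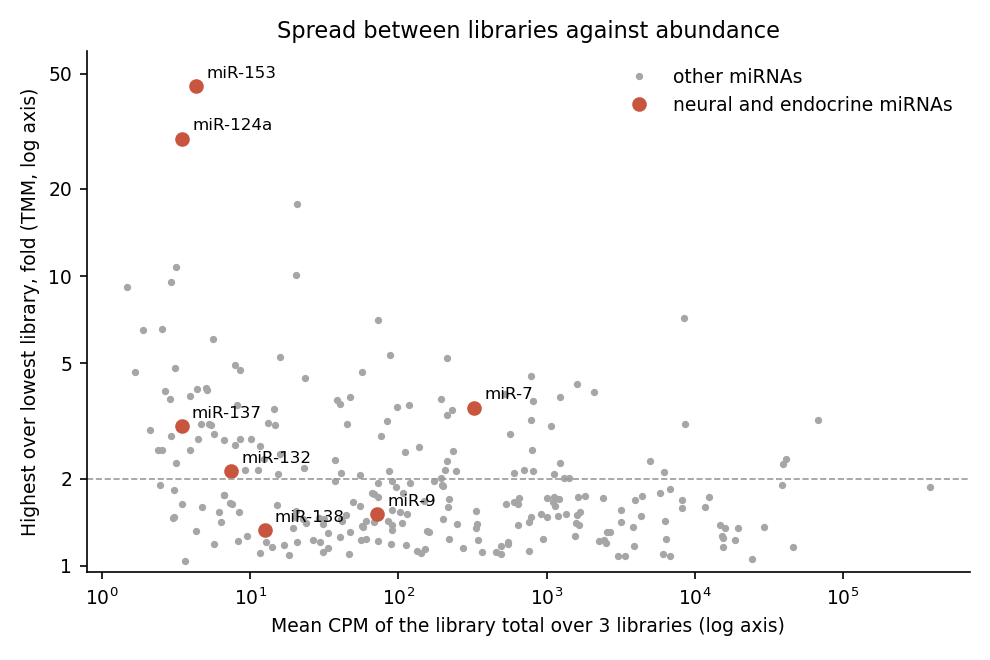
Fold between the highest and the lowest library after TMM scaling, with counts under 3 set to 3 (log axis), against the mean CPM of the library total (log axis), for the 262 miRNAs with at least 20 reads in some library. Each point is 1 miRNA, the dashed line marks 2-fold, and miR-216 is left out because it had at most 11 reads. miR-153 (45.3-fold) and miR-124a (29.8-fold) lie above all other points, while miR-138 (1.33-fold) and miR-9 (1.51-fold) are under 2-fold. Both miR-153 and miR-124a reached 20 reads only in the library where they were high, and such a filter favours wide ranges among scarce miRNAs.

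ssc-miR-132 and miR-212 are genomic neighbours that neurons of mice and rats transcribe together on CREB activation, and MIR132 and MIR212 stand next to each other between OVCA2 and HIC1 in the RefSeq table. miR-132 had 87 reads in the Enshi black, 60 in the wild boar and 25 in the Large White library, or 9.37 (7.50 to 11.6), 7.12 (5.43 to 9.16) and 4.41 CPM (2.85 to 6.51). The Enshi black level was the highest, and its interval does not overlap that of the Large White library. Enshi black over Large White was 2.12 (1.35 to 3.46), and 1.72 as a log2 ratio on library totals. After TMM scaling, wild boar over Large White was 1.61 (0.997 to 2.69) and Enshi black over wild boar 1.32 (0.936 to 1.86), both with intervals that include 1. On library totals these log2 ratios were 1.17 (0.48 to 1.91), past 2-fold, and 0.55 (0.06 to 1.05). Those intervals no longer include equal levels. miR-212 had fewer reads in the same order of libraries, with 29, 14 and 6. Its ratio of Enshi black over Large White was 2.95 (1.20 to 8.69). miR-132 made up 75.0% of the reads of the pair in the Enshi black library (66.1 to 82.6), 81.1% in the wild boar (70.3 to 89.3) and 80.6% in the Large White library (62.5 to 92.5). These intervals overlap, so no difference in the balance of the pair was detectable at this depth.

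ssc-miR-137, which regulates the maturation of neurons in mice, had 20 reads in the Enshi black, 21 in the wild boar and 37 in the Large White library. Its levels were 2.15 CPM (1.32 to 3.33), 2.49 CPM (1.54 to 3.81) and 6.52 CPM (4.59 to 8.99), so the Large White level was the highest and its interval stood clear of the others. Enshi black over Large White was 0.330 (0.181 to 0.584) and wild boar over Large White 0.382 (0.212 to 0.670). On library totals the log2 ratios were −0.96 and −0.91, under 2-fold. Enshi black over wild boar was 0.864 (0.445 to 1.68). DPYD is the neighbour of MIR137 in the RefSeq table.

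ssc-miR-216 had the lowest mean level of the 8, at 1.19 CPM of the library total. It had 11 reads in the Enshi black, 5 in the wild boar and 11 in the Large White library, or 1.18, 0.593 and 1.94 CPM. All 3 counting intervals overlap. Wild boar over Large White was 0.306 (0.0833 to 0.955), but on library totals the log2 ratio of −1.23 had an interval of −3.11 to 0.41 that includes no difference. The other ratios had intervals that include 1. Its genomic neighbour miR-217, likewise a miRNA of pancreatic acinar cells, had 7, 10 and 6 reads, or 0.754, 1.19 and 1.06 CPM. MIR216-1 and MIR217-1 lie side by side within CCDC85A. miR-216 made up 61.1% (35.7 to 82.7), 33.3% (11.8 to 61.6) and 64.7% (38.3 to 85.8) of the reads of the pair, which cannot be told apart at 15 to 18 reads. Acinar marker reads were thus at 1.94, 1.78 and 3 CPM in sum. The islet marker miR-375 was not analysed here, so miR-7 is the only islet marker with a value.

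Without the minimum, and among members with a read in both libraries, 1 of 7 was past the rule as higher in Enshi black over Large White (miR-132) and 3 of 7 as lower (miR-7, miR-137 and miR-153), against 4.33% and 12.7% of 300 miRNAs. In wild boar over Large White 0 of 7 were higher and 4 lower (miR-7, miR-137, miR-153 and miR-216), against 12.1% and 15.8% of 297. In Enshi black over wild boar 0 of 8 were higher and 2 lower (miR-124a and miR-153), against 6.6% and 9.57% of 303. Scarce miRNAs pass this rule more often, as 26.1%, 34.8% and 24.2% of those under 10 CPM did, in either direction, in the same pairs. The highest TMM-scaled level of miR-7, miR-137, miR-153 and miR-216 was thus in the Large White library, that of miR-9, miR-124a and miR-138 in the wild boar library and that of miR-132 in the Enshi black library, though for miR-138 and miR-216 the intervals of all 3 libraries overlap.

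Another 22 names from brain and endocrine tissue were set beside these. Of them, 16 matched 18 mature miRNAs, miR-212 and miR-217 included. The 18 include miR-129b and miR-129a-5p, which may stand for the same reads: each had 45, 72 and 36 reads in the Enshi black, wild boar and Large White libraries. In each library 17 of the 18 had a read, and 7 reached the minimum, namely miR-128, miR-135, miR-149, miR-218, miR-326, miR-328 and miR-335. None of the 7 was past the rule in Enshi black over Large White (2.88% of all 208 were higher and 10.1% lower) or in Enshi black over wild boar (6.25% each way). In wild boar over Large White 0 were higher and 1 was lower, beside 11.5% and 13.5% of all 208. It was miR-218, known from motor neurons in mice. miR-218 had 1681 reads in the Enshi black, 1234 in the wild boar and 1788 in the Large White library, or 181, 146 and 315 CPM. Its ratio of wild boar over Large White was 0.464 (0.431 to 0.500), with a log2 ratio of −0.63 on library totals, under 2-fold. The libraries stood in the order that miR-7 showed. The medians of the 7 log2 ratios were −0.08, −0.26 and −0.07 in Enshi black over Large White, wild boar over Large White and Enshi black over wild boar, and 0.56, 0.22 and 0.09 on library totals, where the medians of all 208 were 0.60, 0.46 and 0.15. miR-128, the most abundant, had log2 ratios of 0.30, 0.48 and −0.19 in these pairs, and of 0.93, 0.96 and −0.03 on library totals. Without the minimum, and with a read in both libraries, others of the 18 were also past the rule. In Enshi black over Large White miR-212 and miR-323 were higher and miR-338 lower. In wild boar over Large White miR-323 was higher and miR-338 and miR-219b-3p lower. In Enshi black over wild boar miR-323 was lower. These are scarce and were not called. miR-323, past 10-fold above, had 23, 48 and 3 reads in the Enshi black, wild boar and Large White libraries.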

How the data were processed

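Small RNA was gel-selected from TRIzol-extracted liver RNA and sequenced as single-end Illumina reads, per the labels' protocols. The submitters' processing notes name the genome build Sscrofa10.2. Which aligner, counter and annotation were used is not given in the sources used here. Each deposited file holds expected counts per mature miRNA and precursor, fractional where a read matches several precursors. The authors' RPM values, which the deposited files also hold, were not used.

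Counts were summed over precursors and rounded (all 8 members had whole sums), and 6 names that repeat another's reads on the same precursors, miR-9-1 and miR-9-2 among them, were left out. miR-129a-5p and miR-129b, with equal counts on different precursors, were both kept. TMM factors, computed with edgeR 4.0.16 (R 4.3.3), were 1.20, 1.08 and 0.772 for Enshi black, wild boar and Large White. The 208 miRNAs with a mean of at least 10 CPM of the library total were called where at least 2-fold apart with an exact conditional-binomial interval that leaves out 1. Levels carry exact Poisson intervals and shares Clopper-Pearson intervals. A count of 0 is given a limit of 3 counts. Reads carry no molecular identifiers. The ratio rule was tried on simulated counting noise drawn from the Large White profile, for miRNAs of at least 10 CPM there. That simulation used library totals, so it does not test the TMM scaling. Alternatives were library totals, totals without miR-122, DESeq2 1.42.0 size factors, other minimums and a 4-fold threshold. The members, their genomic neighbours and the 3 nearest profiles of each callable member were named. Members and lists were chosen with earlier results of these data known.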

Additional observations from a re-analysis of the deposited data

How the results depend on the processing

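After TMM scaling at a 10 CPM minimum, 1 member was past the rule in Enshi black over Large White. That count was 0 on library totals, on totals without miR-122, with DESeq2 size factors and at a 4-fold threshold, since miR-7 then had log2 ratios of −0.37, −0.54 and −0.94 or missed the threshold, and it was 4 without a minimum. In wild boar over Large White the count of 1 became 2 on library totals (miR-9 at 1.02 joined miR-7), 4 without a minimum and 0 at 4-fold. In Enshi black over wild boar the count of 0 became 2 without a minimum. For Enshi black over Large White, the members' median log2 ratio, −0.06, was 0.58 on library totals, 0.41 without miR-122, −0.71 without a minimum and −1.01 at a minimum of 100 CPM, where miR-7 alone is left. The wild boar over Large White median of 0.42 was 0.90 on library totals, −1.39 without a minimum and −1.82 at 100 CPM. The Enshi black over wild boar median of −0.25 was 0.80 at 100 CPM. The sums of the 8 members, 372 CPM in Enshi black, 290 CPM in wild boar and 680 CPM in Large White liver, were 447, 312 and 525 CPM on library totals and 679, 516 and 896 CPM without miR-122. Of 22 single log2 ratios, 1 changed sign under each other scaling, that of miR-9 in Enshi black over Large White. No paired analysis was possible because each breed has 1 library. Depth limits miR-124a, miR-153 and miR-216 most, whose lowest libraries hold 0 to 5 reads.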
